A study of Mus musculus with 4 samples.

Results

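Coch, Otor, Apod, Cp, Rnase1 and Cald1 are known from fibrocytes, fibroblasts, glia and vessels of the cochlea rather than from its neurons. They were chosen because their transcripts had been found in cells annotated as putative spiral ganglion neurons, so their levels in that population are given here as a description, with no test, and the question is how the transcripts lay over single cells. They are 6 of the 18143 genes in the tables, and all 6 passed the filter on low counts. The study profiled single cells of the cochlea from 4 male wild-type mice of the inbred CBA/CaJ strain at 9 weeks of age, with 8 capsules opened in all and no treatment. The tissue held spiral ganglion with spiral limbus, inner sulcus and pieces of outer sulcus and organ of Corti, so non-neuronal cells were present in each suspension, while every annotated cell carries a neuronal label. The annotation gives 505 putative neurons (58, 181, 121 and 145 in mice 1 to 4), 95 type II neurons and 6113 type I neurons, with subtypes IA (2384 cells), IB (1625) and IC (2104). A mouse is the replicate throughout, since cells of 1 suspension share their handling and library.

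In a droplet experiment, RNA released by broken cells floats in the suspension and enters each droplet, so transcripts of cell types that were lost or sorted out can still be counted in every cell. Such free RNA is drawn from 1 pool per suspension, and its molecules fall over the droplets by counting chance. Transcripts that only some cells make, or that came with a fragment or a second cell in some droplets, gather in those cells. A gene made at a like level by every cell also spreads by counting chance. The spread over cells therefore does not tell the source of a transcript, which was not tested. No droplets without cells were analysed here, and values in type I cells of the same mouse are given beside those of putative neurons.

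Coch encodes cochlin, an abundant matrix protein of the spiral ligament and limbus, and lies on chromosome 12 (51593341 to 51605771, plus strand, GRCm38). Otor, on chromosome 2 (143078473 to 143081713, plus), encodes otoraplin, a small secreted protein of cochlear fibrocytes. Apod, on chromosome 16 (31296192 to 31314808, minus), encodes the secreted lipocalin apolipoprotein D, known from fibroblasts and glia of nerves. Cp, on chromosome 3 (19957054 to 20009145, plus), encodes the ferroxidase ceruloplasmin and overlaps Hps3 on the other strand. Rnase1, on chromosome 14 (51144998 to 51146785, minus), encodes a secreted ribonuclease known from endothelium. Cald1, on chromosome 6 (34598500 to 34775473, plus), encodes the actin-binding protein caldesmon of smooth muscle and fibroblasts, and overlaps Npn2 and the gene models Gm13861 and Gm14547 on the other strand. The sources used here do not give whether counting used the strand, so UMIs (unique molecular identifiers, each a captured molecule) of Cp and Cald1 may include some of their partners.

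At 3 or more UMIs, Otor and Rnase1 were the pair with the lowest ratio of observed to expected putative cells holding both (below). The 250 bases upstream of their RefSeq starts are shown, 5′ to 3′ on the gene's strand (RefSeq, GRCm38.p6). Capitals mark matches on either strand to the TATA box letters TATAAA, to the CCAAT box or to the E-box letters CANNTG, overlaps allowed. The windows are chr2:143078143-143078392 (plus) and chr14:51146768-51147017 (minus).
Otor: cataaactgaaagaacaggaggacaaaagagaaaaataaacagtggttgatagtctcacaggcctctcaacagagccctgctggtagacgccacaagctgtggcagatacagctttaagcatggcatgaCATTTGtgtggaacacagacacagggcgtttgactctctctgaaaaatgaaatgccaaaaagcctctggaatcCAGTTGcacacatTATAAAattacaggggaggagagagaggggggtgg
Rnase1: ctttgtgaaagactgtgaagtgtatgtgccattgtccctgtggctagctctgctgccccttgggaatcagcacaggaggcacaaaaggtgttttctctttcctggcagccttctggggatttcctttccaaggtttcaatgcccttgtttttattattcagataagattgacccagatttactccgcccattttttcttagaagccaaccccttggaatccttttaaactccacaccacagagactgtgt
The Otor window held 1 TATAAA and 2 CANNTG matches and was 46% G or C, while the Rnase1 window, at 45.6% G or C, held none of these letters. Of all 32851 windows of this length in the table, 12.4% held TATAAA, 33.8% CCAAT and 66.2% CANNTG.

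The libraries of mice 1 to 4 held 1238, 2232, 1720 and 1523 cells with 15151343 to 27309045 UMIs each. Putative neurons were shallower than the others, with a median of 8923.5, 5502, 4704 and 3459 UMIs per cell in mice 1 to 4, against 7874 to 21026 in type II and 8628 to 19884 in the type I subtypes. They carried neuronal markers at a somewhat lower level: Snap25, a synaptic vesicle fusion protein, stood at 3236 ± 355 CPM (a gene's UMIs per 1000000 UMIs of the sum; SD, n = 4) in putative neurons and 4244 ± 129 CPM in type I. It was detected in 90.3% to 96.6% of putative neurons and in 99.9% to 100% of type I cells of a mouse. Across the libraries 26 barcodes stood in 2 of them, which touches 52 cells.

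Every member was higher in putative neurons than in any other population of the same mouse. Coch stood at 755, 761, 621 and 825 CPM in putative neurons of mice 1 to 4, at 324, 220, 154 and 259 CPM in type II, and between 131 and 229 CPM in the type I subtypes. Otor stood at 194, 144, 158 and 121 CPM in putative neurons, at 23.8, 38.0, 12.8 and 31.8 CPM in type II and between 16.6 and 32.0 CPM in type I subtypes. Putative neurons of every mouse lay above all 16 other sums for both genes. Apod stood at 854, 1266, 616 and 1058 CPM in putative neurons, at 386, 494, 310 and 473 CPM in type II and between 226 and 406 CPM in type I subtypes. Cp stood at 107, 113, 92.4 and 114 CPM in putative neurons, at 20.1, 7.59, 25.6 and 27.3 CPM in type II and between 10.3 and 19.0 CPM in type I subtypes. Here too no putative value fell among the others, and Cp was the most even of the 6 between mice.

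Rnase1 varied most between mice, with 54.4, 243, 129 and 198 CPM in putative neurons, 25.6, 30.4, 41.0 and 77.2 CPM in type II and 20.4 to 58.0 CPM in type I subtypes. Mouse 1 was the lowest in putative and in type I cells alike, and its putative value fell among the type I and type II values of other mice, though not of its own. Cald1 stood at 93.4, 116, 79.2 and 152 CPM in putative neurons, at 51.2, 38.0, 20.5 and 31.8 CPM in type II and between 12.2 and 24.7 CPM in type I subtypes. The putative values again lay above all others. Exact 95% Poisson intervals on single sums, which cover counting error only, were narrow for abundant genes (693 to 822 CPM for Coch in putative neurons of mouse 1) and wide in the small type II sums, as for the single Cp UMI of mouse 2 (0.192 to 42.3 CPM).

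**Figure D1:**
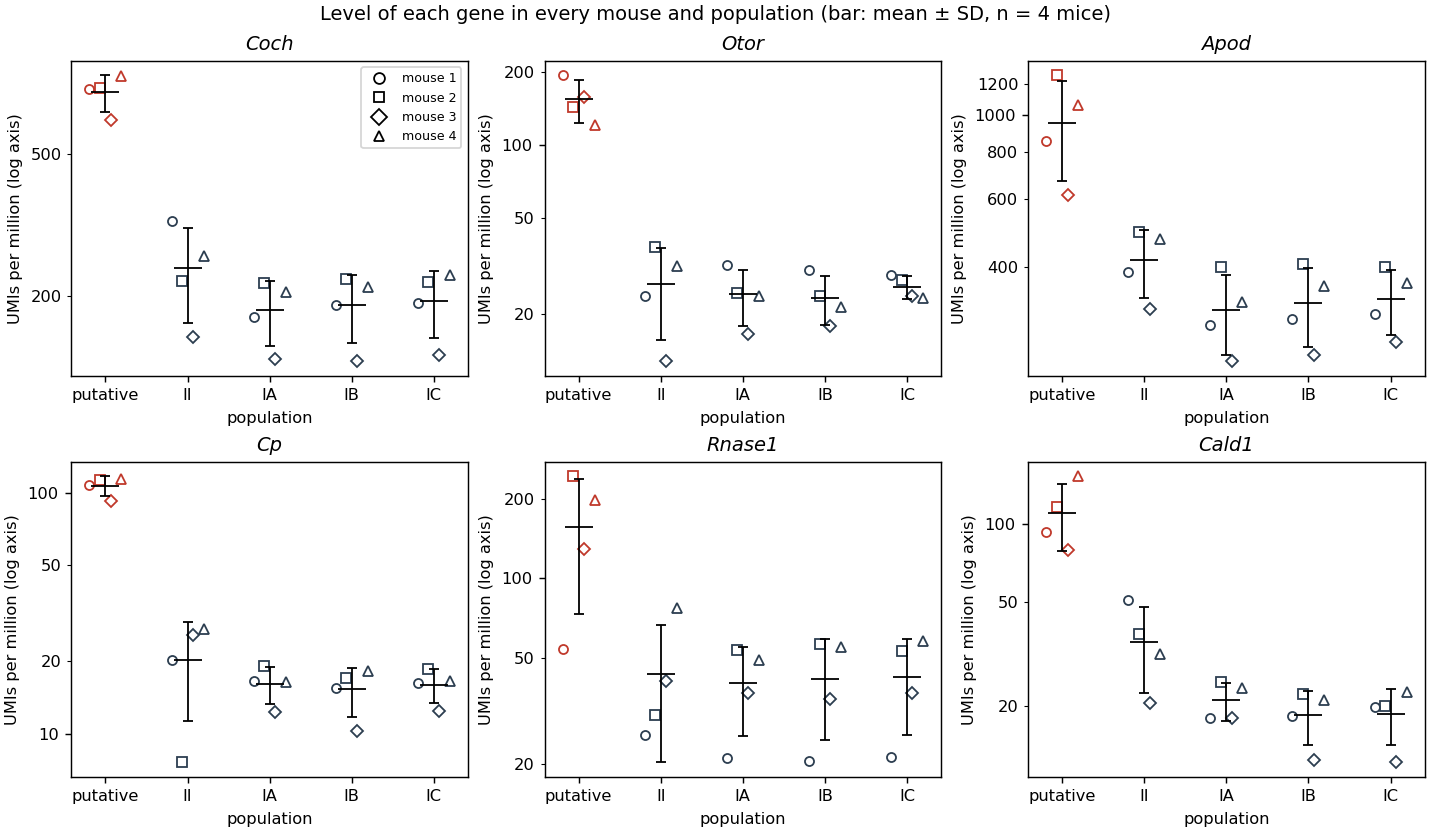
CPM of each gene (log axis) by population, with 1 symbol per mouse and bars for the mean ± SD of 4 mice. Putative neurons (leftmost) lie above the type II and type I values of the same mouse for all 6 genes, while the type I subtypes overlap one another.

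In an edgeR fit over all 13005 genes tested, the log2 difference between putative neurons and the mean of the other populations was 2.69 ± 0.10 (SE) for Otor, 2.64 ± 0.10 for Cp, 2.25 ± 0.10 for Cald1, 1.91 ± 0.09 for Rnase1, 1.89 ± 0.06 for Coch and 1.48 ± 0.06 for Apod, each higher in 4 of 4 mice. In this contrast 13.8% of all genes passed an adjusted p of 0.05 by the quasi-likelihood test, 10.2% being higher and 3.57% lower. Against types IA, IB and IC alone 23.5% passed, 14.3% higher and 9.25% lower. These differences are what the members were chosen on and are not tested here. The order of mean levels was putative neurons, then type II, then type I for each gene, and for Otor, Cp and Rnase1 type II and type I means lay within 1 SD of each other (26.6 ± 10.9 and 24.6 ± 4.61 CPM for Otor). Means of the type I subtypes differed by less than the spread between mice, from 183 ± 37.7 CPM in IA to 194 ± 41.2 CPM in IC for Coch, and from 307 ± 72.5 to 329 ± 64.1 CPM for Apod. Within a mouse, IC stood above IA in 4 of 4 mice for both genes. The gap was small in mouse 2, at 218.3 against 217.5 CPM for Coch.

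Type II neurons stood close to type I. Coch, Apod and Cald1 were called higher in type II, by 0.40 ± 0.11, 0.33 ± 0.09 and 0.95 ± 0.25 on the log2 scale, and Otor (-0.18 ± 0.28), Cp (0.46 ± 0.29) and Rnase1 (0.14 ± 0.22) did not pass. Of all genes 23.7% passed in this contrast, 12.0% higher and 11.7% lower, so 3 of 6 members called higher stand beside a broad background. The calls rested on few cells. In type II cells of mouse 1, 65 of 177 Coch UMIs lay in 1 cell. Without the cell richest in the 6 genes in each sum, Coch was at 0.05 ± 0.12 and Apod at 0.07 ± 0.10, neither called, while Cald1 stayed at 0.92 ± 0.25. Without cells of 3 or more UMIs of the glial gene Fabp7, Apod (0.23 ± 0.10) was not called. Without mouse 1, Coch (0.09 ± 0.13) and Cald1 (0.48 ± 0.35) were not called.

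The same contrast can be put as UMIs against a type I rate. Its being above 1 follows from the choice of members. At the type I rate per UMI, putative neurons held 3.98 times the expected Coch UMIs (geometric mean of 4 mice, range 3.47 to 4.64). The ratio was 6.25 for Otor (5.27 to 8.08), 2.92 for Apod (2.58 to 3.16), 6.82 for Cp (6.16 to 7.83), 3.51 for Rnase1 (2.60 to 4.48) and 5.56 for Cald1 (4.97 to 6.73). For the 6 summed it was 3.65, with mice between 3.57 and 3.73. With the type I rate taken per cell, whatever its depth, the ratios were lower, from 1.96 for Apod to 4.57 for Cp and 2.45 for the sum, and above 1 in 4 of 4 mice for each gene. The same ratios in type II cells, per UMI, ran from 1.01 for Otor to 1.75 for Cald1. An exact sign-flip test over 4 mice has 16 arrangements and cannot give a p below 0.125, and none is given.

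The level in type I cells followed depth. Between the shallowest 25% and the deepest 25% of type I cells of a mouse, mean depth differed 3.77-fold, and UMIs per cell differed 3.18-fold for Coch, 3.78-fold for Otor, 3.55-fold for Apod, 3.89-fold for Cp, 3.40-fold for Rnase1 and 2.79-fold for Cald1. In putative neurons depth differed between 6.38-fold and 7.48-fold in a mouse, and UMIs per cell varied too widely between mice for an order of the genes, from 2.94-fold to 38.1-fold for Coch, 3.85-fold to 61.5-fold for Otor and 3.52-fold to 10.95-fold for Cp. The geometric mean for Coch, 10.7-fold, was 6.97-fold without mouse 1 and 16.4-fold without mouse 4.

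The spread over single cells was read by an index and by a share. The index of dispersion is the squared deviation of each cell's count from that expected at its population's own rate and its depth, divided by that expectation and averaged over cells, and is near 1 where counts vary by counting chance alone. In type I cells it was 1.02 for Cp, 1.06 for Rnase1, 1.13 for Otor, 1.18 for Cald1, 1.84 for Coch and 2.11 for Apod (means of 4 mice). In putative neurons it was 1.78 for Cp, 6.10 for Rnase1, 8.08 for Otor, 3.00 for Cald1, 18.3 for Coch and 11.1 for Apod. The index grows with the mean count of a gene, so it does not rank the genes, and the higher counts of putative neurons enter the gap between populations. The richest 10% of putative neurons of a mouse held 79.7% ± 6.11 of the Otor UMIs (SD, n = 4), 76.0% ± 8.20 of Rnase1, 57.2% ± 7.59 of Coch, 56.3% ± 9.73 of Cald1, 47.0% ± 7.55 of Cp and 42.7% ± 2.95 of Apod. The same share in type I cells was 51.7% ± 7.24 for Otor, 42.7% ± 3.74 for Rnase1, 28.4% ± 2.28 for Coch, 56.1% ± 7.004 for Cald1, 61.9% ± 7.71 for Cp and 25.7% ± 1.68 for Apod. The share was larger in putative neurons for Otor, Rnase1, Coch and Apod and alike in both for Cald1. For Cp it was smaller in putative neurons, although the Cp index was higher there. The share takes no account of depth, which varied more among putative neurons, and is high where counts are few. By itself it does not show in which population a gene was more gathered.

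The number of rich cells was set against a Poisson draw at the putative neurons' own rate in the same mouse and the depth of each cell. Cells with at least 1 UMI were fewer than the draw gives for each gene, 374 against 478 for Coch, 146 against 295 for Otor, 413 against 489 for Apod, 210 against 254 for Cp, 192 against 314 for Rnase1 and 196 against 259 for Cald1. At 5 or more UMIs the genes divided. Coch (163 cells against 234) and Apod (234 against 282) still lay below the draw and Rnase1 close to it (37 against 38.7), while Otor (42 against 27.6), Cp (16 against 9.48) and Cald1 (25 against 10.3) lay above it. The far tail lay above the draw for Otor and Rnase1 at 10 or more UMIs (18 cells against 0.783, and 28 against 1.71) and for Coch at 20 or more (42 against 18.2), while Apod at 20 or more was near it (68 against 61.0). No putative cell held 10 or more Cp UMIs, which allows a share of up to 0.594%. At the type I rate per UMI fewer rich cells are expected, 45.4 with 5 or more UMIs for Coch, 115 for Apod and under 1 for the other 4 genes, a comparison whose direction follows from the choice of members.

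Type I cells lay close to the draw at their own rate at 1 UMI, and above it in the far tail for Coch, Apod, Otor, Rnase1 and Cald1. With at least 1 UMI, 5157 of 6113 cells held Coch (5180 expected) and 1603 Otor (1637). With 5 or more, 873 held Coch (932 expected), 2428 Apod (2536), 7 Otor (0.802), 11 Rnase1 (5.31), 3 Cald1 (0.167) and none Cp (0.069), the last allowing a share of up to 0.0491%. With 10 or more UMIs 67 cells held Coch against 20.9 expected, and with 20 or more 9 held Coch and 30 Apod, where fewer than 1 was expected for either gene.

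**Figure D2:**
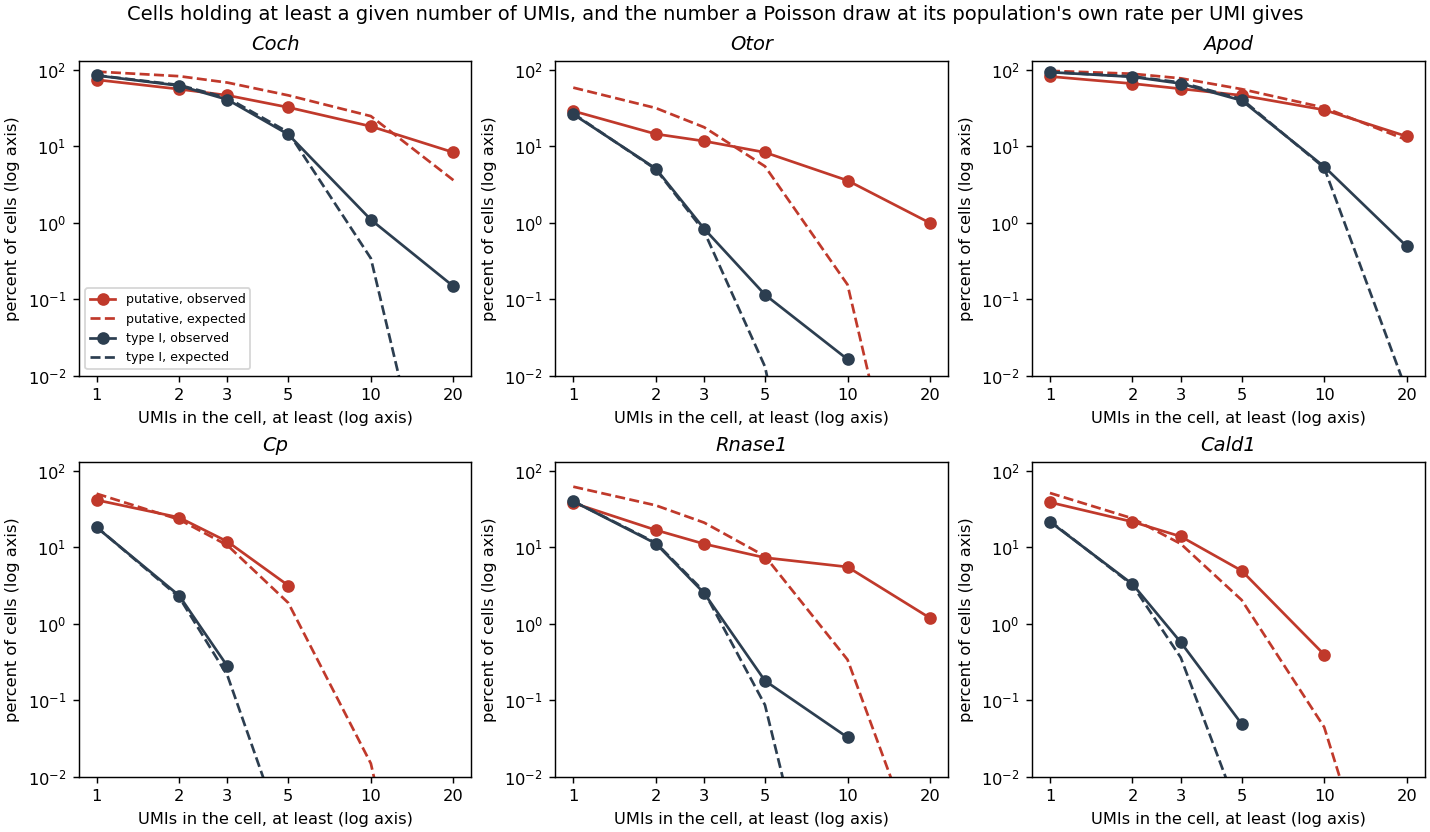
Percent of cells (log axis) holding at least 1 to 20 UMIs (log axis) of each gene, observed (points, solid) and expected from a Poisson draw at the population's own rate per UMI in the same mouse (dashed), for putative neurons and type I cells. At 1 UMI the putative points lie below their dashed line for all 6 genes and the type I points close to theirs, while at 10 or more UMIs Otor and Rnase1 lie above the dashed line in putative neurons.

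Detection alone showed little of this. The share of cells with at least 1 UMI was 73.8% in putative neurons and 84.4% in type I for Coch, and 35.3% and 38.8% for Rnase1, lower in putative neurons, the shallower population. After each cell was thinned to 4215 UMIs, which left out 237 putative, 5 type II and 429 type I cells, Coch was found in 75.2% ± 5.40 of putative neurons and 53.0% ± 7.26 of type I cells (SD, n = 4 mice), and Rnase1 in 26.1% ± 8.74 and 16.0% ± 5.78. In ratio the wider gaps were those of Cp (35.4% ± 3.13 and 6.37% ± 1.05), Cald1 (31.2% ± 7.44 and 7.97% ± 1.54) and Otor (24.1% ± 6.89 and 9.52% ± 1.78), and Apod was found in 86.0% ± 6.20 and 71.8% ± 7.26. Median depth before thinning was 4725 UMIs over all putative neurons and 13351 over all type I cells.

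Whether the 6 transcripts came together was read from pairs. For each of the 15 pairs, the cells holding both genes were set against an expected number. The expectation took the genes as independent given depth, with each gene's chance of reaching the minimum from a Poisson rate proportional to depth. That rate was fitted to the number of cells seen. In type I cells 19801 cell-pair combinations were observed and 19866 expected at 1 or more UMIs of both genes (0.997), and single pairs lay between 0.951 and 1.04. In putative neurons the ratio was 1.07, with 14 of 15 pairs above 1 and 11 of them above in 4 of 4 mice. Cp with Cald1 was the highest of the pairs, with 137 cells against 108 expected, above in 4 of 4 mice. The 15 pairs share 6 genes and the same cells, so they are not separate observations. In the deeper cells the ratio at 1 UMI was nearer 1 (below). At 2 or more UMIs of both genes it was 0.977 over all putative neurons, with 7 pairs above 1 and 8 below.

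The picture changed when only rich cells were counted. At 3 or more UMIs of both genes, 711 combinations were observed and 773 expected, and 11 of 15 pairs lay below 1. Counts in putative neurons departed from a Poisson draw (above), so at this and higher minima the expected numbers may be too high. Ratios below 1 are therefore not read as genes keeping apart. Otor and Rnase1 met in 4 cells against 18.2 expected, below in 4 of 4 mice, and Cp and Rnase1 in 5 against 17.9, also below in 4 of 4. Rnase1 and Cald1 met in 7 cells against 22.0, Otor and Cald1 in 15 against 23.2, and Coch and Rnase1 in 34 against 50.4. Coch and Apod met in 208 cells against 193 expected, above in 4 of 4 mice, and Coch and Otor in 56 against 53.3. At 5 or more UMIs, Otor and Rnase1 met in 1 cell against 11.2 expected. The 6 lowest ratios at 3 or more UMIs were those of the 5 pairs with Rnase1 and of Otor with Cald1.

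**Figure D3:**
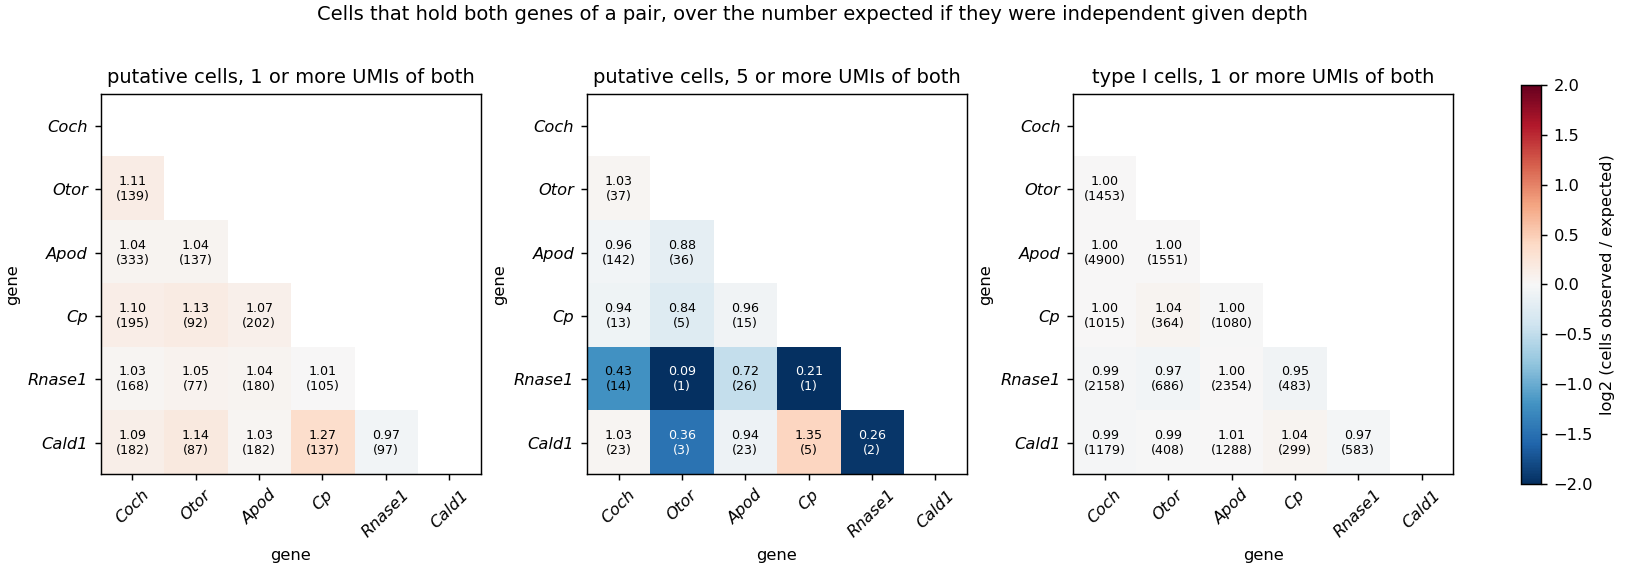
Ratio of observed to expected cells holding both genes of each pair (colour, log2 scale; number of cells in brackets) for putative neurons at 1 or more and 5 or more UMIs, and for type I cells at 1 or more. Ratios are near 1 in type I cells and slightly above it in putative neurons at 1 UMI. They are far below it for most Rnase1 pairs at 5 UMIs, where the expected numbers may be too high.

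The levels of other members in rich cells differed for some pairs and not for others. In putative neurons with 5 or more Rnase1 UMIs, Coch averaged 404 ± 188 CPM (SD, n = 4 mice) and Otor 28.9 ± 40.2 CPM, against 783 ± 80.4 and 168 ± 30.6 CPM in putative neurons with fewer. In those with 5 or more Otor UMIs, Rnase1 averaged 73.3 ± 56.1 CPM against 169 ± 81.5 CPM, and Coch 995 ± 244 against 701 ± 133 CPM. In those with 5 or more Coch UMIs, Otor averaged 231 ± 28.4 CPM against 59.9 ± 21.6 CPM, and Cald1 159 ± 49.3 against 58.4 ± 26.8 CPM. Rnase1 in the same cells stood at 127 ± 65.3 CPM against 181 ± 107 CPM, within the spread between mice. Cald1 did not differ by more than the spread either, at 119 ± 143 CPM in cells with 5 or more Rnase1 UMIs against 114 ± 37.5 CPM with fewer, and at 111 ± 25.9 against 110.4 ± 32.7 CPM for Otor. These cells were chosen by the counts themselves, so the values describe and do not test. Of the 505 putative neurons 182 held 3 or more UMIs of no member, 80 of 1, 105 of 2, 89 of 3, 39 of 4, 9 of 5 and 1 of all 6.

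The leading cells differed in what else they held. The putative cell with most Coch held 116 UMIs of it with 50 of Apod and none of Otor or Rnase1, among 25059 UMIs that included 105 of Snap25 (mouse 1). The next held 94 Coch UMIs among 6218, with 3 of Snap25 (mouse 2). The cell with most Apod held 128 UMIs of it, 5 of Coch and 265 of Otos, which encodes the fibrocyte protein otospiralin, beside 50 of Snap25. The cell with most Rnase1 held 34 UMIs of it and 45 of Snap25, with none of Otor, Cp or Cald1. The cell with most Cald1 held 14 among only 2636 UMIs, with 40 of Coch and 1 of Snap25 (mouse 4). The next in Cald1, with 10, carried 42 UMIs of the smooth muscle actin gene Acta2, 17 of the endothelial receptor gene Flt1 and 34 of Snap25. At least 1 Snap25 UMI was found in 155 of the 163 putative cells with 5 or more Coch UMIs, at a median depth of 14846 UMIs, and in 312 of the 342 with fewer, at 3678. No cells without Snap25 expression were at hand to give a background share, so this detection is not read as expression.

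The proportions of the 6 genes among themselves restate their unequal folds in the contrast they were chosen on, and are given as a description. Of the UMIs of the 6, Apod made up 42.1% ± 4.77 in putative neurons and 52.3% ± 1.29 in type I cells (SD, n = 4 mice), lower in 4 of 4 mice. Otor made up 7.28% ± 2.43 and 4.14% ± 0.960, Cp 4.89% ± 0.535 and 2.61% ± 0.179, and Cald1 4.94% ± 0.819 and 3.21% ± 0.147, each higher in putative neurons of 4 of 4 mice. Coch made up 33.9% ± 3.73 and 30.9% ± 1.66 (higher in 3 of 4), and Rnase1 6.87% ± 2.89 and 6.76% ± 2.05 (higher in 2 of 4). Type II proportions were close to those of type I for Coch (30.4% ± 5.79) and Apod (53.4% ± 5.48).

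Putative neurons with 3 or more UMIs of a member were deeper than those with none, which the count itself favours. For Coch, 234 such cells had a median depth of 14740 ± 6001 UMIs and 131 cells with no Coch UMI one of 3209 ± 420 (SD over 4 mice). Neuron markers (12 genes summed) stood at 10190 ± 1292 CPM in the Coch-rich cells and 7519 ± 1368 CPM in those with none, and mitochondrially encoded transcripts took 8.27% ± 0.547 and 16.9% ± 1.67 of UMIs. Satellite glia markers (11 genes without Cp) went the other way, at 3162 ± 707 CPM in the Coch-rich cells and 28851 ± 8419 CPM in those with none. This held for each member, with satellite glia sums of 2728 to 3587 CPM in rich cells and 11916 to 31415 CPM in cells with none (means of 4 mice). In Rnase1-rich cells the neuron marker sum was 8978 ± 2104 CPM, against 9226 ± 1304 CPM in cells without Rnase1, and was higher in 3 of 4 mice. The exception was mouse 1, which had 2 Rnase1-rich cells with a neuron sum of 6384 CPM and pericyte and smooth muscle markers at 3506 CPM, against 99.4 to 333 CPM in mice 2 to 4. Lists for the members' known cell types moved differently. Endothelial markers stood at 68.5, 47.1 and 146 CPM in Rnase1-rich cells of mice 2 to 4, against 179, 129 and 271 CPM without Rnase1. In mouse 1 they stood at 1588 against 230 CPM. Fibrocyte and limbus markers averaged 882 ± 244 CPM in Otor-rich cells against 1108 ± 469 CPM. In Coch-rich cells they averaged 1190 ± 534 against 711 ± 221 CPM. Fibroblast markers (Apod) and pericyte markers (Cald1) had higher means in rich cells. Depth, glial RNA and doublets (droplets with a second cell) move with the counts here, and their part in the result was not tested. No doublet caller was run.

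**Figure D4:**
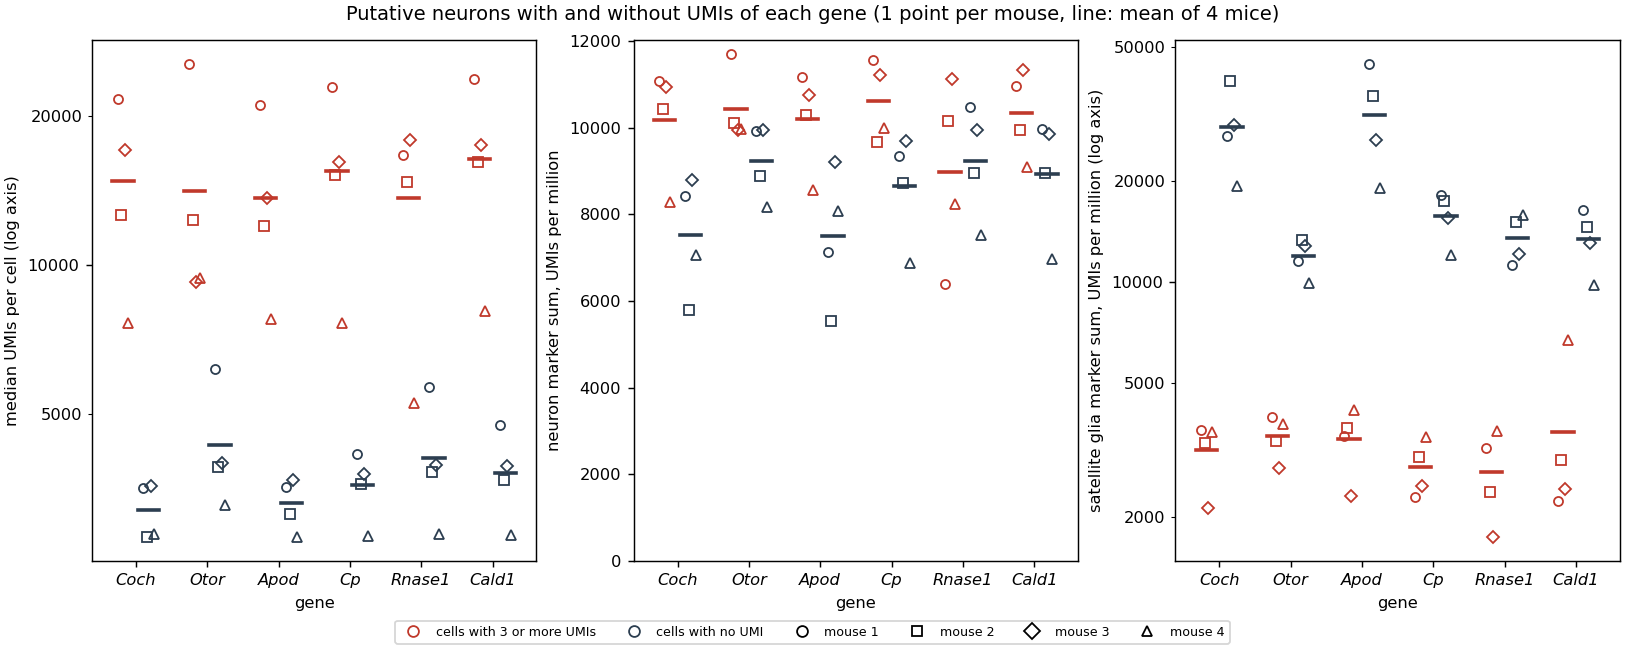
Median depth (log axis), summed neuron markers and summed satellite glia markers (log axis) in putative neurons with 3 or more UMIs of each gene and in those with none, with 1 symbol per mouse and a line at the mean of 4 mice. Cells with 3 or more UMIs are deeper and hold less satellite glia RNA than cells with none for all 6 genes in each of the 4 mice.

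The satellite glia sum and the sum of the 6 genes both had higher means in putative neurons and in type II than in type I, in different proportions. A link between them was not tested. The glia sum was 8425 ± 440 CPM in putative neurons, 8924 ± 2080 CPM in type II and 1451 ± 136 CPM in type I. The 6 genes summed to 2216 ± 425 CPM in putative neurons, 780 ± 148 CPM in type II and 609 ± 127 CPM in type I. In the 96 putative neurons with 3 or more UMIs of Fabp7, a fatty acid binding protein of glia, the 6 genes stood at 1490 ± 570 CPM, against 2282 ± 436 CPM in the other 409.

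Other genes of the same cell types were then counted by lists, members left out, and over all genes in this contrast the median log2 difference was 0.02, with 10.2% called higher. Of 17 fibrocyte and limbus genes tested, 14 were higher in putative neurons than in the other populations and none lower (median 1.52), among them Tbx18 (2.63 ± 0.25) and Pou3f4 (2.27 ± 0.21), which encode transcription factors of the otic mesenchyme, and the fibrillar collagen gene Col3a1 (2.24 ± 0.39). Ucma showed the widest difference of the list, 2.91 ± 0.63. Of 9 endoneurial and perineurial fibroblast genes 6 were higher and 1 lower, with Dcn, the matrix proteoglycan decorin, at 2.18 ± 0.13, Osr2 at 2.08 ± 0.50, Pdgfra at 2.07 ± 0.28 and Sox9 at 1.89 ± 0.13. Of 10 endothelial genes 7 were higher, with the transporter gene Slco1a4 at 2.04 ± 0.31 and Flt1 at 1.95 ± 0.31, the second in 3 of 4 mice. Of 10 pericyte and smooth muscle genes 7 were higher, with Des, which encodes desmin, at 2.21 ± 0.21 and Tagln at 1.84 ± 0.39. Of 11 satellite glia genes 8 were higher, with Fabp7 at 3.90 ± 0.17 and Apoe at 2.17 ± 0.08. The medians of these lists were 1.75 for the fibroblast genes, 1.29 for the endothelial, 1.14 for the pericyte and smooth muscle and 0.80 for the satellite glia genes. The summed fibrocyte and limbus markers ranged from 621 to 1453 CPM in putative neurons and from 295 to 484 CPM in type I, with no gene of the list at 0 in either.

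The remaining lists follow. Of 11 Schwann cell genes 2 were higher (median -0.02), of 10 macrophage genes 1 (0.06), of 8 supporting cell genes 4 (0.34), and of 5 erythroid, 1 hair cell, 3 melanocyte and 4 osteoblast genes none, none of them lower. Of 14 genes for secreted proteins of the inner ear matrix and extracellular space, 8 were higher, with the matrix Gla protein gene Mgp at 1.33 ± 0.08, and 1 was lower (median 0.78). Of 12 neuron genes none was higher and 3 were lower, with Uchl1 at -0.63 ± 0.07 and Stmn2 at -0.63 ± 0.09 (median -0.18), and of 10 spiral ganglion neuron genes 1 was higher, the transcription factor gene Prox1 (0.57 ± 0.13), and 2 were lower, with Gata3 at -0.93 ± 0.14 and Pvalb at -0.30 ± 0.08 (median -0.06). Gata3 stood at 34.9 ± 8.65 CPM in putative neurons and 40.1 ± 1.44 CPM in type I. In type II it stood at 324 ± 85.7 CPM, which raises the mean of the other populations. Against types IA, IB and IC alone, 9 of the 12 neuron genes were lower and 1 higher (median -0.27). Of the 10 spiral ganglion neuron genes 5 were lower there and none higher (median -0.22), so Prox1 was not called higher against type I.

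The genes that accompanied each member over cells differed in part. Among 5 named for each by the highest mean log2 ratio of putative cells with 2 or more UMIs of the member over those with none (2 UMIs added to each sum, ratio above 0 in 4 mice), Otor came with Ptgs2 (3.01), Rarres1 (2.94), Fn1 (2.81), Tnfaip6 (2.65) and Emcn (2.48). Fn1 encodes the matrix protein fibronectin and stood at 80.2 ± 36.2 CPM in the 73 cells with Otor and 10.2 ± 8.25 CPM in the 359 without. Rnase1 came with Crhbp (3.74), Slc26a7 (3.49), Ttr (3.32), Lrp2 (3.13) and Bbox1 (3.04). In mouse 1, which had 4 such cells, Ttr was at 0 CPM in the cells with Rnase1 and 2.11 CPM in those without. Its ratio there comes from the added UMIs, and Ttr was higher by CPM in 3 of 4 mice. Slc26a7 and Bbox1 were near the floor in mouse 1, both at 19.3 CPM with Rnase1, against 0 and 2.11 CPM without. The added UMIs weigh more in the group of cells with fewer UMIs in all. They raise ratios for Otor and Rnase1 and lower them for Coch and Apod (Car3 with Coch in mouse 1, 56.8 against 0 CPM, 0.71). Ratios are therefore not compared between members, and a ratio above 0 is easily reached at low counts for Otor and Rnase1. Crhbp encodes a binding protein of corticotropin-releasing hormone and Ttr the thyroxine carrier transthyretin, and Crhbp stood at 513 ± 312 CPM in the 85 cells with Rnase1 and 34.6 ± 20.1 CPM in the 313 without. None of these 5 was among those of another member.

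Cp came with Itga8 (2.08), Des (1.74), Rhoj (1.62), Lox (1.59) and Cpm (1.48), and Cald1 with Fst (2.24), Lox (2.07), Car3 (2.07), Tnfrsf11b (2.00) and Lbp (1.78), so that Lox, the collagen cross-linking lysyl oxidase, stood in both sets. Coch came with Igfbp5 (1.62), Car3 (1.60), Emcn (1.33), Meg3 (1.26) and Igfbp6 (1.14), sharing Car3 with Cald1, Emcn with Otor, and Meg3 and Igfbp6 with Apod. Apod came with Igfbp6 (1.54), Meg3 (1.51), Igfbp2 (1.18), Lypd1 (1.17) and Vstm2l (1.16). Lypd1 and Meg3 are known from neurons, and both were higher in the deeper cells that held Apod (1114 ± 185 CPM of Lypd1 in the 333 cells with Apod, 495 ± 203 CPM in the 92 without). Over the 20 sums of mouse and population, the genes whose log2 level followed the sum of the 6 most closely included Trf (Pearson r 0.968), Cebpb (0.959), Pantr1 (0.953), Ier3 (0.945), Zbtb20 (0.944), Ptpn1 (0.922), H2-Q4 (0.920), B2m (0.918) and Sat1 (0.918). These sums share the mice and the split between putative and other cells, and the values are a description.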

How the data were processed

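Each mouse has 1 deposited table of raw UMI counts (gene symbols by cells), made by the authors from 10x Genomics v2 libraries that tag molecules near their 3′ ends (per the labels' protocols). Cell Ranger 2.0.1, Seurat 1.4 and the build mm10 stand in the submitters' processing notes. The sources used here do not state filters on cells, strand use or how labels were assigned. The authors' deposited annotation names the population of each cell. No clustering was done.

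UMIs were summed per mouse and population into 20 sums and fitted in edgeR (version 4.0.16, R 4.3.3) after filterByExpr and TMM scaling (robust quasi-likelihood test, mouse as a block, which each mouse gives by contributing every population), with Benjamini-Hochberg adjustment over 13005 genes and a threshold of 0.05. DESeq2 1.42.0 was an alternative. Expected cell counts are Poisson tail probabilities summed over cells (scipy 1.17.1). Thinning was to the depth at percentile 10. The scripts were tested on simulated data. Intervals and limits from a count of 0 (3 counts) cover counting error only. P-values measure the spread left among the 20 sums of these 4 mice once population and mouse are fitted. Each gene's spread was drawn toward that of other genes (12 residual and a median of 66.8 prior degrees of freedom).

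The 6 members and the 15 marker lists were chosen with earlier results of these data known. Genes named from a list are among the 4 of largest difference. Genes named by likeness are the 5 highest per member over cells (20 or more UMIs in putative neurons, prior count 2) and the 10 highest over sums, without Gm and Rik models; 1 of these 10 is not reported here. Feature names are symbols as deposited. Gene positions come from the GENCODE annotation of GRCm38, and upstream sequences from RefSeq.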

Additional observations from a re-analysis of the deposited data

Results flagged for a closer look

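For each gene and population, levels and dispersion were screened over the 4 mice for a value far from the other 3, which was the case in 6 of 60 groups, where chance flags about 1 in 20 groups. All 6 were dispersions. In putative neurons, Coch was lowest in mouse 3 (16.0). In type II cells, Coch was highest in mouse 1 (40.1), where 1 cell held 65 of 177 UMIs, Cp was highest in mouse 1 (3.27), where 1 cell held 4 of 11 UMIs, and Cald1 was highest in mouse 2 (7.37), where 1 cell held 3 of 5 UMIs. In type IC cells, Coch was highest in mouse 4 (2.34), and in type IA cells Apod was highest in mouse 2 (3.83).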

How the results depend on the processing

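Of 373 alternative values over 48 results, 348 were counted as unchanged, 18 as moved, 5 as weaker and 2 as reversed. Unchanged meant within the SD between mice of the main value, for values over cells even where the side turned. For counts of genes called it meant a count within a set fold, and for members in type II the same sign and call. The 6 members stayed higher in putative neurons under every alternative to the fit that was run. These were DESeq2, no filter, no replicate block, each mouse left out, and the cell subsets. The members were chosen on this difference, so their staying higher is favoured by the choice and is no test of it. The members' median log2 difference was 2.08, 2.15 with no replicate block and 2.05 to 2.19 without 1 mouse. The count of genes called, 1793 in the blocked fit, was 1444 with no replicate block, 3057 against types IA, IB and IC only, 1158 in cells at or above 4215 UMIs, and 1146 to 1691 without 1 mouse, the lowest being without mouse 2. The type II count, 3088, was 3104 with no replicate block and 2226 to 2932 without 1 mouse, an alternative chosen after seeing the data. Putative UMIs of the 6 genes over the type I rate, 3.65, came to 2.45 per cell, 3.21 with the rate of all cells, 3.75 without cells of 3 or more Fabp7 UMIs and 3.62 to 3.67 without 1 mouse. Putative cells with 3 or more UMIs of the 6 genes were 0.740 of the number that an even spread at their own rate gives, 0.941 in the deeper cells and 0.711 to 0.769 without 1 mouse. The geometric mean over pairs of observed over expected cells, 1.07 at 1 UMI, turned below 1 at a minimum of 2 UMIs (0.885), and was 1.28 with rates per cell, 1.01 in the deeper cells and 1.06 to 1.09 without 1 mouse. Rnase1 in type II against type I was 0.14, and between -0.0079 and 0.27 without 1 mouse. Leaving out cells whose barcode stands in 2 libraries, also chosen after seeing the data, moved none of the results it was run on. The causes of these shifts were not tested. The depth of putative neurons and the 95 type II cells limit what single UMIs can show.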
